A study of Danio rerio with 3 samples.

Results

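The genes described here copy DNA and divide cells: 25 genes of DNA replication, 17 genes of mitosis and 4 cyclin and kinase genes of the G1 and S phases, 46 in all. They were chosen as a list of gene symbols, and 38 of them are named in the array's probe table. Of these 38, 33 had a value in all 3 samples (86.8%), where 5904 of all 14462 genes on the array did (40.8%). Of the 64 probes of these 33 genes, 58 had a value in all samples, and 1 more, a kif23 probe, had one in replicate 1 only. The genes orc1, cdt1, gins1, fen1 and ccne2 are on the array but had no value in any sample. The genes cdc6, rfc4, pola1, rrm2, aurkb, bub1, tpx2 and mki67 were not matched by symbol and are not analysed here.

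The study set whole zebrafish embryos exposed to Aroclor 1254, a commercial mixture of polychlorinated biphenyls, against control embryos on two-colour oligonucleotide arrays. Exposure began at 24 h post fertilization (hpf), lasted 24 h at 71.9 mg/L, and the embryos were 48 hpf old; controls were kept in fish medium at 28.5 °C without Aroclor. Neither a strain, a genotype nor the number of embryos in a sample is given in the sources used here. There are 3 biological replicates, each a ratio of exposed to control RNA or its inverse, so they form 1 group and the contrast lies inside every value. The labels do not say whether the replicates came from separate clutches, so p-values cover only how far these samples spread, which may be technical.

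Values are log2 ratios with the sign as deposited. In the labels channel 1 is control and channel 2 is exposed, but which of them is the numerator is not stated, so no direction of exposure is given for any gene. As a reference for the sign, cyp1a, the cytochrome P450 gene known to be induced by dioxin-like biphenyls, was positive at 7.07, 8.61 and 8.02 in replicates 1, 2 and 3. It was the only gene of 5904 with an adjusted p under 0.05 (0.00086, limma with Benjamini-Hochberg adjustment). The log base is inferred from the values, the pairing of rows with genes was itself inferred from the data, and the number of arrays limits the precision. Lists of differentiated neuron, skeletal muscle, embryonic red cell, epidermis and lens markers, which a whole embryo should hold, had 8 to 13 genes each measured in all samples.

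Before S phase, the origin recognition complex with Cdc6 and Cdt1 loads the ring of Mcm2 to Mcm7 onto DNA, and the GINS complex with Cdc45 turns it into the active helicase. Polymerase alpha and primase start each strand, RPA coats single-stranded DNA, and the RFC clamp loader places the PCNA ring that holds the polymerases. Mitosis is driven by Cdk1 with B-type cyclins, by the Polo-like and Aurora kinases and by spindle motors, while the spindle checkpoint restrains Cdc20 until chromosomes are attached. In vertebrates, replication genes are transcribed mainly around the G1 to S transition and mitotic genes mainly in G2 and M. In an embryo of this age, dividing cells remain abundant in the brain, the retinal margin and blood-forming tissue.

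In replicate 1, replication genes were mostly negative and mitosis genes mostly positive. The median log2 ratio was -0.58 over the 17 measured replication genes and 0.68 over the 13 measured mitosis genes, against -0.013 over all genes. In replicate 2 both medians were positive, 0.30 and 0.25, and in replicate 3 both were near 0, 0.080 and 0.0053. The gap between the classes was therefore seen in 1 of 3 samples.

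The counts show the same. In replicate 1, 13 of 17 replication genes were negative, where 50.6% of all genes were, and 11 of 13 mitosis genes were positive, where 49.4% of all genes were. All 11 of those mitosis genes lay above the highest replication gene, rpa3. In replicate 2, 12 of 17 replication genes and 9 of 13 mitosis genes were positive (48.8% of all genes), and in replicate 3 it was 10 of 17 and 7 of 13 (45.7% of all genes). Above the highest replication gene lay 0 of the 13 mitosis genes in replicate 2 and 1 in replicate 3, so the classes overlapped there. The share of all genes above the highest replication gene was not counted in any replicate.

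Replication minus mitosis, as a difference of medians, was -1.26, 0.051 and 0.075 on the log2 scale in replicates 1, 2 and 3, a mean of -0.38 ± 0.77 (SD, n = 3). The spread between samples exceeded the mean. Taken over each gene's mean, the class medians were -0.18 and 0.37, and without replicate 1 they were 0.18 and 0.097. Because the classes were chosen lists, no p is given for them. In whole embryos, fewer cells of a type and less RNA per cell cannot be told apart.

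**Figure D1:**
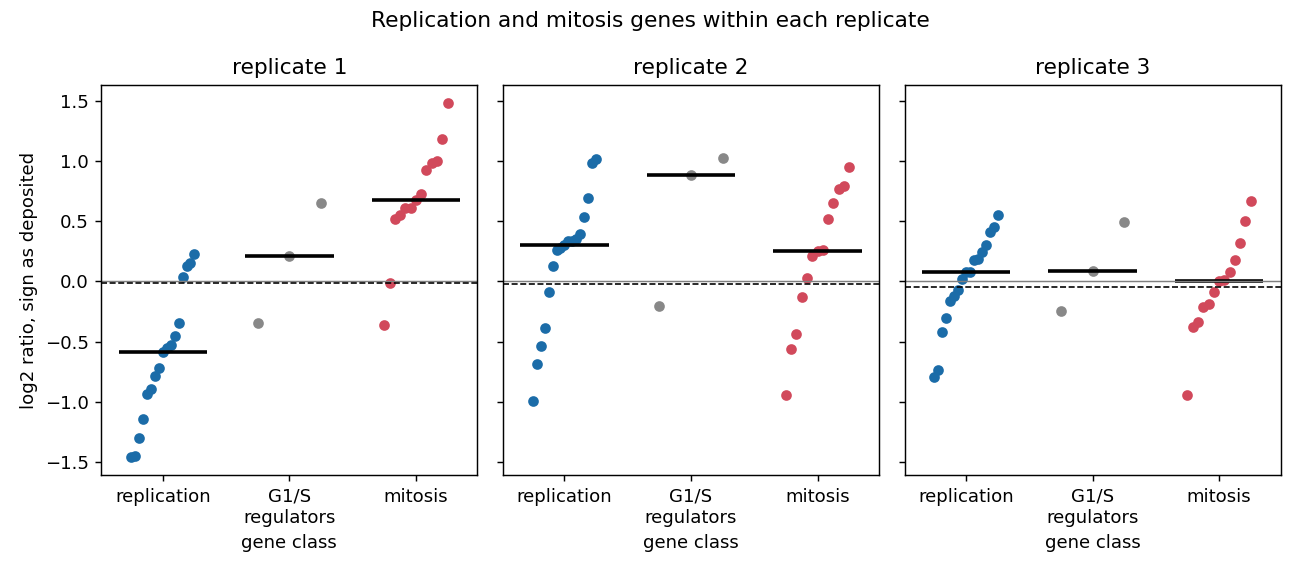
Log2 ratio (sign as deposited, vertical axis) of each replication, G1/S and mitosis gene (points, horizontal axis by class) in each of the 3 replicates. Thick bars are class medians and the dashed line is the median of all genes; the replication and mitosis medians lie apart in replicate 1, at -0.58 and 0.68, and close together in replicates 2 and 3.

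No gene of the 33 passed an adjusted p of 0.05 in limma (over all genes 0.0169% did). At an unadjusted p of 0.05, 4 did, kif11, ccnb2 and ccnd1 positive and mcm6 negative, beside 16.1% of all genes. Of the 33, 9 were positive in all 3 samples and 5 negative in all, beside 19.7% and 23.1% of all genes. A ratio of at least 1.5-fold with 1 sign in all 3 samples was reached by kif11 alone, beside 5.34% of all genes. With replicate 1, 2 or 3 left out in turn, 0, 6 and 2 of the 33 fell under the unadjusted threshold of 0.05. Shares of all genes in those refits are not given here, so these counts cannot be set against the 16.1% from all 3 samples.

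**Figure D2:**
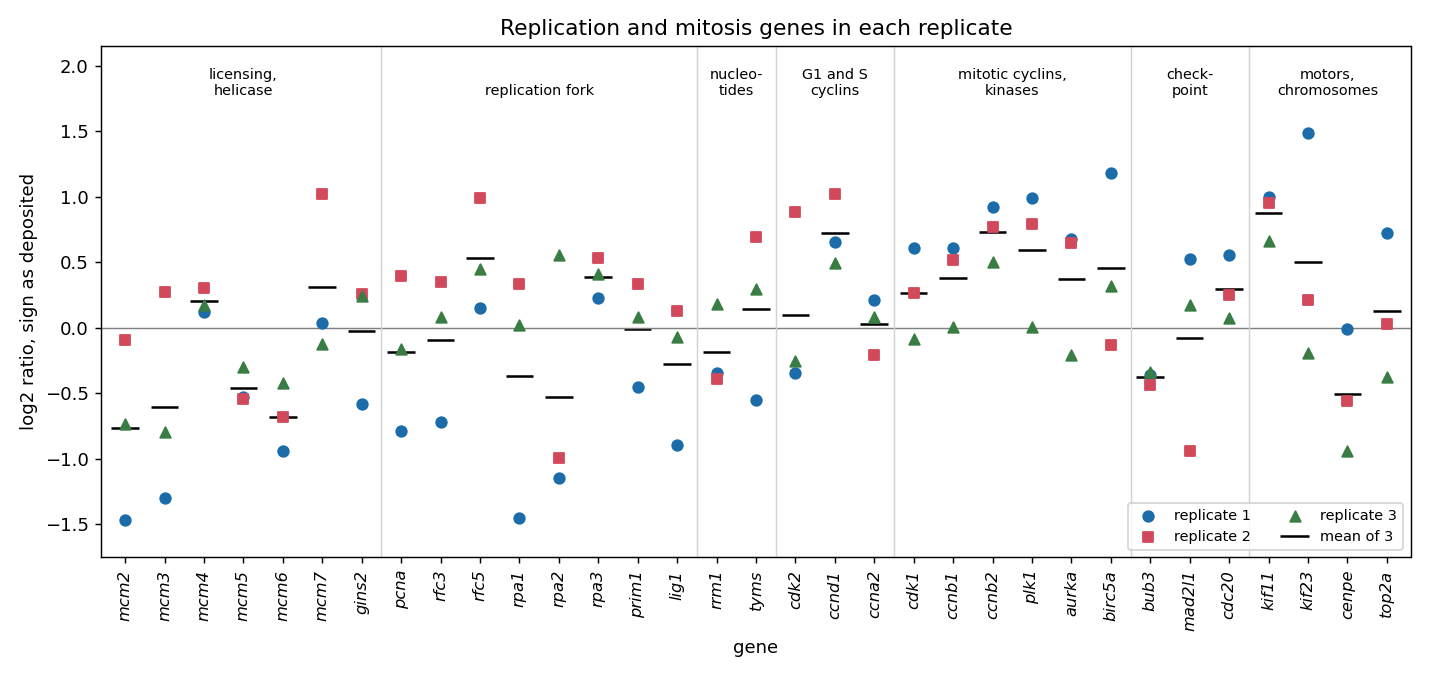
Log2 ratio (sign as deposited, vertical axis) of the 33 measured genes (horizontal axis, ordered by role) in replicates 1 (circles), 2 (squares) and 3 (triangles), with the mean as a bar. Circles lie low for most replication genes on the left and high for most mitosis genes on the right. The 3 samples lie above 0 for 9 genes, among them kif11, ccnb2 and ccnd1, and below 0 for 5, among them mcm6.

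The helicase ring genes mcm2 to mcm7 were all measured and did not move as one. The gene mcm6 read -0.94, -0.68 and -0.42 in replicates 1, 2 and 3, a mean of -0.68 ± 0.26 (SD, n = 3; 1.60-fold if log2), with an unadjusted p of 0.030 and an adjusted p of 0.259 in limma. Every sample was negative, and so were its 3 rows one by one, from -1.06 to -0.25. Its partner mcm2 read -1.46, -0.092 and -0.74 (mean -0.76 ± 0.69, adjusted p = 0.310, limma), negative in every sample but near 0 in replicate 2.

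The gene mcm5 read -0.53, -0.54 and -0.30 as a mean of 3 rows that disagreed. One row was positive in replicates 1 and 3, at 0.29 and 0.31, and -1.47 in replicate 2, while another was negative throughout, at -1.03, -0.60 and -0.89. The gene's even mean thus covers rows of opposite sign.

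For mcm3 the values were -1.30, 0.27 and -0.80, with replicate 2 on the other side of 0. The gene mcm7 read 0.035, 1.02 and -0.12, high in replicate 2 alone. The gene mcm4 was positive in each sample at 0.12, 0.30 and 0.18, although a row of it was negative in replicate 3. Subunits of one ring thus ran from a mean of -0.76 for mcm2 to 0.31 for mcm7, with a median of -0.73, 0.091 and -0.36 over the 6 genes in the 3 replicates.

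Of the helicase activators, gins2, a subunit of the GINS complex, read -0.58, 0.26 and 0.24. It differed in sign between replicate 1 and the others. Of the 7 measured genes of origin licensing and the helicase, 5 were negative in replicate 1, 3 in replicate 2 and 5 in replicate 3. In these replicates 50.6%, 51.2% and 54.3% of all genes were negative. The genes mcm2, mcm3, mcm5 and mcm6 were negative in both replicates 1 and 3.

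At the replication fork, rfc5, a subunit of the clamp loader, had the smallest p. It read 0.15, 0.99 and 0.45 (mean 0.53 ± 0.42, SD, n = 3; adjusted p = 0.370, limma), positive in every sample as a gene and highest in replicate 2. A row of rfc5 was -0.053 in replicate 1. The clamp loader subunit rfc3 read -0.72, 0.35 and 0.081, so the pair differed in sign in replicate 1.

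The sliding clamp pcna, widely used as a marker of S phase cells, read -0.79, 0.40 and -0.16 (mean -0.18 ± 0.59, adjusted p = 0.769, limma). Its 2 measured rows went together, at -0.85 and -0.73 in replicate 1 and 0.35 and 0.44 in replicate 2. Both rows thus gave the low value in replicate 1 and the high value in replicate 2. For this and other genes, agreement between rows is not independent support, because the row numbering was picked partly for such agreement.

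The 3 subunits of RPA, the single-strand binding complex, had 3 different patterns. The largest, rpa1, read -1.45, 0.34 and 0.022, low in replicate 1 alone. The middle subunit, rpa2, read -1.14, -0.99 and 0.55, and its 2 rows agreed in sign in each sample. The smallest, rpa3, read 0.23, 0.53 and 0.41, positive in each sample as a gene, although a row of it was -0.12 in replicate 1. Their means, -0.36, -0.53 and 0.39, had SDs of 0.95, 0.94 and 0.15 (n = 3).

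The primase subunit prim1, which makes the RNA primer, read -0.45, 0.34 and 0.080 over 4 rows. All 4 rows were negative in replicate 1 and positive in replicate 2, and in replicate 3 they ran from -0.34 to 0.46. The ligase lig1, which seals Okazaki fragments, read -0.90, 0.13 and -0.072. Thus 6 of the 8 measured fork genes were negative in replicate 1, 1 in replicate 2 and 2 in replicate 3. In these replicates 50.6%, 51.2% and 54.3% of all genes were negative. The medians of the fork genes were -0.75, 0.34 and 0.081.

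In nucleotide supply, rrm1, the large subunit of ribonucleotide reductase, read -0.35, -0.39 and 0.18 (mean -0.18 ± 0.32, SD, n = 3; adjusted p = 0.732, limma). The thymidylate synthase tyms read -0.55, 0.69 and 0.30. Both were negative in replicate 1 and positive in replicate 3, and they had opposite signs in replicate 2. A row of rrm1 was -0.17 in replicate 3.

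Among the G1 and S phase regulators, ccnd1, the cyclin D1 that links growth signals to the G1 kinases, was positive in every sample. It read 0.65, 1.02 and 0.50 (mean 0.72 ± 0.27, SD, n = 3; 1.65-fold if log2), with an unadjusted p of 0.024 and an adjusted p of 0.245 in limma. Both of its rows were positive in each sample, from 0.25 to 1.07.

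The S phase kinase cdk2 read -0.34, 0.88 and -0.25, high in replicate 2 alone. Cyclin A2, ccna2, which acts in S phase and at mitotic entry, read 0.21, -0.21 and 0.082. Its 2 rows had opposite signs in each sample, at 0.44 and -0.016 in replicate 1, -1.06 and 0.64 in replicate 2, and 0.23 and -0.062 in replicate 3. Its mean is thus a balance of unlike rows, most of all in replicate 2.

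The 6 measured genes of mitotic cyclins, kinases and their partners were all positive in replicate 1, between 0.61 and 1.18. In that replicate 49.4% of all genes were positive. The B-type cyclin ccnb2 read 0.92, 0.77 and 0.50 (mean 0.73 ± 0.21, SD, n = 3; 1.66-fold if log2), with an unadjusted p of 0.021 and an adjusted p of 0.237 in limma. Both of its rows were above 0 in every sample. The other B-type cyclin, ccnb1, read 0.61, 0.52 and 0.0093 over 3 rows, positive in replicates 1 and 2 and close to 0 in replicate 3.

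Their kinase partner cdk1 read 0.61, 0.26 and -0.085. The Polo-like kinase plk1, which acts at centrosomes and kinetochores, read 0.99, 0.80 and 0.0053 (mean 0.60 ± 0.52, adjusted p = 0.351, limma). The centrosomal Aurora kinase aurka read 0.68, 0.65 and -0.21. These 3 kinases were thus positive in replicates 1 and 2 and near or below 0 in replicate 3, as ccnb1 was.

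The gene birc5a encodes survivin, a subunit of the chromosomal passenger complex that Aurora B belongs to. It read 1.18, -0.13 and 0.32, high in replicate 1 alone. The medians of these 6 genes were 0.80, 0.58 and 0.0073 in replicates 1, 2 and 3.

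The 3 measured spindle checkpoint and anaphase genes had 3 different patterns. The gene bub3, whose protein brings checkpoint kinases to kinetochores, was negative in every sample with the smallest spread of the 33 genes. It read -0.36, -0.43 and -0.34, a mean of -0.38 ± 0.050 (SD, n = 3; adjusted p = 0.443, limma), but the gene rests on a single row. The checkpoint effector mad2l1 read 0.52, -0.94 and 0.18, apart in replicate 2. Their target cdc20, which activates the anaphase-promoting complex, read 0.56, 0.25 and 0.076, positive in each sample as a mean of 3 rows, of which 2 were negative in replicate 3.

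Among spindle motors, kif11, the Eg5 kinesin that pushes spindle poles apart, had the largest mean and the smallest p of the 33 genes. It read 1.00, 0.95 and 0.66 in replicates 1, 2 and 3, a mean of 0.87 ± 0.18 (SD, n = 3; 1.83-fold if log2), with an unadjusted p of 0.0092 and an adjusted p of 0.200 in limma. Every sample was positive and above 1.5-fold, but the gene rests on a single row.

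The cytokinesis kinesin kif23 read 1.49, 0.21 and -0.19. Its value in replicate 1 includes a row measured in that sample alone, at 2.52, without which the gene read 0.97 there. The kinetochore motor cenpe read -0.011, -0.56 and -0.94, negative in each sample and opposite to kif11. The topoisomerase top2a, which untangles chromosomes, read 0.72, 0.029 and -0.38. Of the 4 measured genes of spindle motors and mitotic chromosomes, 3 were positive in replicate 1, 3 in replicate 2 and 1 in replicate 3. In these replicates 49.4%, 48.8% and 45.7% of all genes were positive.

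Rows of the same gene were also compared with each other. Of the 33 genes, 17 had several rows measured in all samples, and 27 of their 34 pairs of rows had the same sign of the mean. Within a sample, 28 pairs agreed in sign in replicate 1, 30 in replicate 2 and 19 in replicate 3, where ratios were smaller. In replicate 1, 26 of 33 rows of replication genes were negative and 18 of 20 rows of mitosis genes were positive. The same counts were 11 of 33 and 15 of 20 in replicate 2, and 15 of 33 and 10 of 20 in replicate 3. The matching shares over all rows of the array are not given here. Most rows of a gene carry the same transcript accession and all share the sample, and the renumbering that names them was picked partly because rows of a gene agreed, so these counts are not independent support.

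**Figure D3:**
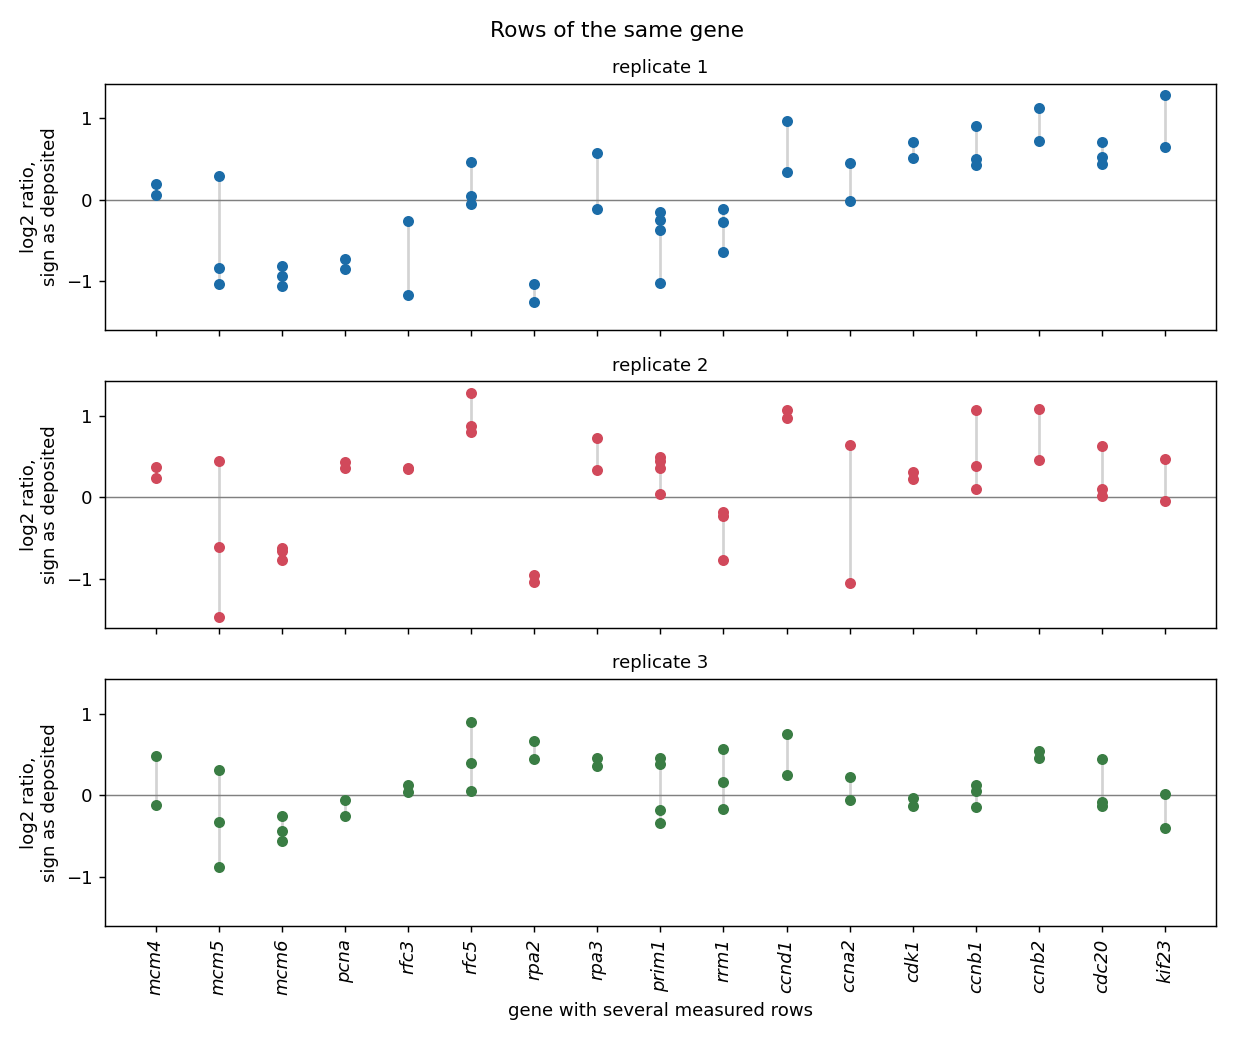
Log2 ratio (sign as deposited, vertical axes) of each row measured in all samples for the 17 genes with several such rows (horizontal axis), 1 panel per replicate; grey lines join rows of a gene. In replicate 1 all rows of mcm6, pcna, rfc3, rpa2, prim1 and rrm1 are below 0 and all rows of cdk1, ccnb1, ccnb2, cdc20 and kif23 above it, while both rows of mcm4 are above 0 and rows of mcm5, rfc5, rpa3 and ccna2 lie on both sides.

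Other genes of the same machinery were taken from lists that did not include the 46. Among 38 measured of 54 other replication genes the median was -0.72, 0.21 and -0.18 in replicates 1, 2 and 3. In these replicates 29, 15 and 25 of the 38 were negative, beside 50.6%, 51.2% and 54.3% of all genes. Among 33 measured of 60 other mitosis genes the median was 0.77, 0.48 and -0.061. Here 27, 25 and 14 of the 33 were positive, beside 49.4%, 48.8% and 45.7% of all genes. The difference between these lists was -1.49, -0.27 and -0.12, widest in replicate 1. It was negative in every sample, where that of the listed genes was negative in replicate 1 alone. All lists come from the same 3 samples and were chosen with earlier results of these data known. The difference was not tested.

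None of these other genes had an adjusted p under 0.05. At an unadjusted p of 0.05, 2 of the 38 replication genes were positive and 4 negative, and 6 of the 33 mitosis genes were positive and 1 negative, beside 7.67% and 8.43% of all genes. Of the 15 replication genes with 1 sign in all samples, those that also had an unadjusted p under 0.05 were the GINS subunit gins3 (1.08 ± 0.51) and the chromatin assembly factor chaf1a (0.72 ± 0.25), both positive, and the polymerase alpha subunit pola2 (-0.76 ± 0.30), the fork protection factor tipin (-0.91 ± 0.71) and the origin recognition subunit orc3 (-0.73 ± 0.43), all negative (SD, n = 3 each). The GINS subunits gins3 and gins2 thus differed in replicate 1, at 0.82 and -0.58.

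Of the other mitosis genes, the kinetochore subunit nuf2 read 1.61, 1.09 and 0.65 (mean 1.12 ± 0.48, adjusted p = 0.193, limma). The kinesin kifc1 (0.87 ± 0.62), the kinesin kif4 (0.86 ± 0.65), the checkpoint kinase ttk (0.80 ± 0.53) and the cytokinesis scaffold anln (0.68 ± 0.33) were also positive in each sample. The chromatin-bound exchange factor of Ran, rcc1, was negative at -1.77, -0.86 and -0.61 (adjusted p = 0.204, limma). In nuf2, kifc1, kif4, ttk and anln, replicate 1 was the highest sample and replicate 3 the lowest.

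**Figure D4:**
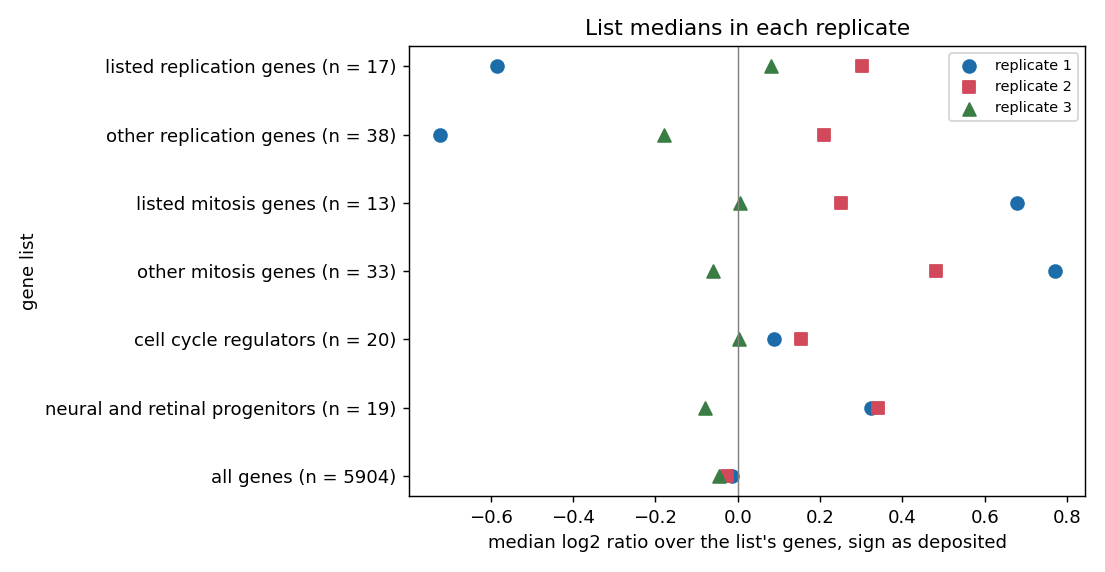
Median log2 ratio (sign as deposited, horizontal axis) of each gene list (vertical axis, n is the number of genes measured in all samples) in replicates 1 (circles), 2 (squares) and 3 (triangles). Both replication lists lie below 0 in replicate 1, at -0.58 and -0.72, and both mitosis lists above it, at 0.68 and 0.77.

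Transcription factors that control these genes were examined too. The cell cycle regulator list, with 20 measured of 38 genes, had a median of 0.087, 0.15 and 0.0023. The E2F repressors e2f7 and e2f8 read -0.92 and -0.69 in replicate 1, 0.11 and 0.089 in replicate 2, and 0.020 and -0.079 in replicate 3, low in replicate 1 as most replication genes were. The activator e2f3 read 0.60, -1.68 and 0.043, and e2f4 read -0.12, 0.36 and -0.45.

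The repressor e2f6 was negative in each sample, at -0.62, -0.44 and -0.91 (adjusted p = 0.265, limma). The mitotic gene activators foxm1 (-0.18 ± 0.17) and mybl2b (0.11 ± 0.038) stayed close to 0 (SD, n = 3 each). The D-type cyclin ccnd2a was positive like ccnd1, at 0.57, 0.65 and 1.47 (adjusted p = 0.223, limma), and so was myca, a Myc gene, at 1.17, 0.78 and 0.39 (adjusted p = 0.241, limma).

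Markers of tissues also differed between the samples. Markers of neural and retinal progenitors, which are dividing cells, had a median of 0.32, 0.34 and -0.078 over 19 genes in replicates 1, 2 and 3. Of the 19, 14, 13 and 7 were positive in these replicates, beside 49.4%, 48.8% and 45.7% of all genes. Members went both ways: 4 were positive in all samples and 2 negative in all, beside 19.7% and 23.1% of all genes. The gene sox19a read 0.95, 0.86 and 0.27, and fabp7a read -0.65, -2.73 and -1.06. Lens markers stood at 1.41, -0.65 and -0.43 over 8 genes, red cell markers at 0.024, 1.63 and -0.28 over 9, epidermal markers at 0.18, 1.41 and 0.18 over 8, neuron markers at 0.041, -1.34 and -0.26 over 10, and muscle markers at -0.21, -0.18 and 0.10 over 13. Of the 8 epidermal genes, 5 were positive in all samples, among them epcam at 0.95, 1.41 and 1.44. Another, krt5, was negative in all, at -0.69, -0.75 and -0.73. Of the 13 muscle genes, 0 were positive in all samples and 4 negative in all, among them tnnt3b at -1.77, -1.62 and -1.15. The part of the marker differences in the replication and mitosis values was not tested.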

How the data were processed

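The authors deposited 1 table of log ratios for 3 samples, 45219 rows in all, taken here as log2 from the values; the natural logarithm was not excluded. How background, normalization, signs and dye swaps were handled is not given in the sources used here. Ratios were used as deposited.

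Rows were paired with the platform's gene symbols by grid position, a numbering inferred earlier from these values. Each gene's measured rows were averaged per sample, and 5904 genes measured in all 3 samples were tested against 0 with limma 3.58.1 (R 4.3.3; lmFit and eBayes, 2-sided, Benjamini-Hochberg over all genes, 2 residual and 4.58 prior degrees of freedom), after a test on simulated data. The members and lists were chosen with earlier results of these data known. Values per sample were to be given for genes with an unadjusted p under 0.05 and the smallest p of each role. The plan also named at most 6 genes of each other list with 1 sign and that p. It added cyp1a and the measured E2F, foxm1 and mybl2b genes. Some genes of the other lists are given by mean and SD only, and most marker genes that met the rule are not named. The remaining members' values were added after they were seen. Alternatives were other scalings, row summaries, filters, numbering, weights, classes and each replicate left out.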

Additional observations from a re-analysis of the deposited data

How the results depend on the processing

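No member passed an adjusted p of 0.05 under any alternative run. The number of all genes passing was 1 as reported, 40 with array weights, 40 with equal median absolute deviation, 28 with quantile normalization and 8 with the row numbers as given, and 1 to 19 when a replicate was left out. Members at an unadjusted p of 0.05 numbered 4, against 7 with array weights, 1 with the row numbers as given, and 0 to 6 with a replicate left out. Members at 1.5-fold with 1 sign in all samples numbered 1, against 3 with equal median absolute deviation, 3 with quantile normalization, and 1 to 7 with a replicate left out, where fewer samples had to pass. For both measures the share of all genes in each alternative is not given here, so the member counts cannot be read against it. Leaving out a replicate moved the replication median between -0.30 and 0.18, the mitosis median between 0.097 and 0.53 and their difference between -0.72 and 0.082; without replicate 1 the replication median (0.18) and the difference (0.082) turned sign. With the row numbers as given, the replication median was 0.23, the mitosis median -0.10, their difference 0.33 and mcm6 0.045, all of opposite sign; only 10 of 38 genes were then measured in all samples, and the cause was not tested. With array weights the replication median was -0.10, the mitosis median 0.23, their difference -0.33 and rrm1 -0.037, and with the median over rows the replication median and rrm1 were both -0.12, all of the same sign as reported but smaller by over 1.5 times. Of 71 alternative values of the 7 genes kif11, ccnb2, ccnd1, mcm6, rfc5, rrm1 and bub3, 70 kept their direction. All but rrm1 had 1 sign in all 3 samples. Leaving out, reweighting or rescaling replicates could not turn their sign, so this count was largely fixed in advance. Leaving out a replicate moved rrm1 between -0.37 and -0.082, and rfc5 was 0.30 without replicate 2. Counting top2a with replication, ccna2 with mitosis or the G1/S regulators with replication kept the difference between -0.52 and -0.43, with a replication median of -0.062 in the last case. Signal over background was not known. No paired analysis was possible because the 3 samples form 1 group and the contrast lies within each value.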
